A study of Homo sapiens with 9 samples.

Results

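The mitochondrial genome holds 37 of the 60708 genes in the files, and all 37 were taken, by chromosome alone: 13 protein genes, 2 rRNA genes and 22 tRNA genes, on chrM of GRCh38, which is 16569 bases long. Their RNA was counted in 9 libraries of untreated cells grown in DMEM with fetal bovine serum. The labels give 3 libraries as WT, the parental MDA-MB-231 line, an established human triple-negative breast cancer line, and 3 libraries each as CS16 and CS19. CS16 and CS19 are labelled *SNAI1*-KO. The paper reports that they were made from that line with a pool of CRISPR/Cas9 guide plasmids and a repair plasmid under puromycin. Counts of marker genes given below go against this origin, which was not tested further. CS16 and CS19 are 1 clone each, so that the 6 libraries labelled *SNAI1*-KO stand for 2 clones. No source used here states for these sequencing libraries that the 3 of a group came from separate cultures. The p-values below then measure the spread between these libraries, which may be technical.

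Mitochondrial DNA is a small circle that each cell carries in many copies. It encodes core subunits of respiratory complexes I, III, IV and V, and the rRNAs and tRNAs of the mitochondrial ribosome's own translation. Both strands are transcribed by the RNA polymerase POLRMT as long precursors that cover most of the circle, and the tRNAs, which lie between the other genes, are cut out to release the mRNAs and rRNAs. Every protein that copies, transcribes or processes this genome is encoded in the nucleus.

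The libraries held 19527195 to 28627777 read pairs on genes. *SNAI1* itself, the targeted gene, was not lower in the libraries labelled knockout, with 16, 38 and 21 counts in WT, 26, 40 and 49 in CS16, and 57, 94 and 94 in CS19. These counts cover the whole gene and cannot show a small deletion. For both clones the paper reports *SNAI1* deletions seen in its sequencing reads, lower *SNAI1* mRNA by RT-qPCR and no detectable protein. The counts here do not show the lower mRNA, and the libraries are named below by their labels. Of 11 markers of basal-B breast lines, 11 were lower in every *SNAI1*-KO library than in every WT library, with a summed level of 11184 to 14348 CPM (counts scaled to a fixed library total) in WT against 519 to 569.8 in *SNAI1*-KO, where 2 of them were at or under 3 counts throughout. Of 9 luminal markers, 6 were lower in every *SNAI1*-KO library than in every WT library and 2, *FOXA1* and *CDH1*, were higher. The summed level of the 9 was 1153 to 1527 CPM in WT and 60.2 to 103 in *SNAI1*-KO, most of it from *KRT8* and *KRT18*. Among the 6, *ESR1* and *TFF1* had at most 9 and 17 counts in any library. The 3 haematopoietic markers summed to at most 0.617 CPM in any library. The 9p21 genes *CDKN2A*, *CDKN2B* and *MTAP*, which MDA-MB-231 lacks, had 0 counts in all 3 WT libraries. Their summed level was 164 to 182 CPM in the 6 *SNAI1*-KO libraries, against the reported origin of these libraries from that line. These differences separate the same libraries as every comparison with WT below, and their part in the mitochondrial values was not tested. The library WT-2 was unlike the other WT libraries, in its mitochondrial RNA and beyond it: 19.1% of 18960 genes with a ratio were at least 2-fold higher in it than in the mean of WT-1 and WT-3, and *RN7SL1*, the RNA of the signal recognition particle, took 0.692% of its counts against 1.23% to 4.23% in the other 8 libraries. Tests against WT are therefore given with and without it.

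Mitochondrial genes took a lower share of all counted read pairs in each of the 6 *SNAI1*-KO libraries than in each WT library. The share was 0.795% in WT-1, 2.40% in WT-2 and 0.645% in WT-3. It was 0.420%, 0.338% and 0.371% in CS16 and 0.394%, 0.498% and 0.382% in CS19. The groups did not overlap, and the lowest WT library lay above the highest *SNAI1*-KO library, CS19-2. Counting error was small beside these gaps, with 95% Wilson intervals of 2.39% to 2.41% for WT-2 and 0.495% to 0.501% for CS19-2, which cover counting error only. The mean was 1.28% ± 0.973 (SD, n = 3) in WT, 0.376% ± 0.0416 in CS16 and 0.425% ± 0.0637 in CS19 (n = 3 each), and WT-1 and WT-3 alone gave 0.720% ± 0.106 (n = 2). The clones overlapped each other. No p-value was computed for this sum over the genes. A share of bulk RNA cannot tell apart fewer cells of a type, less mitochondrial RNA per cell and more RNA from the nucleus.

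**Figure D1:**
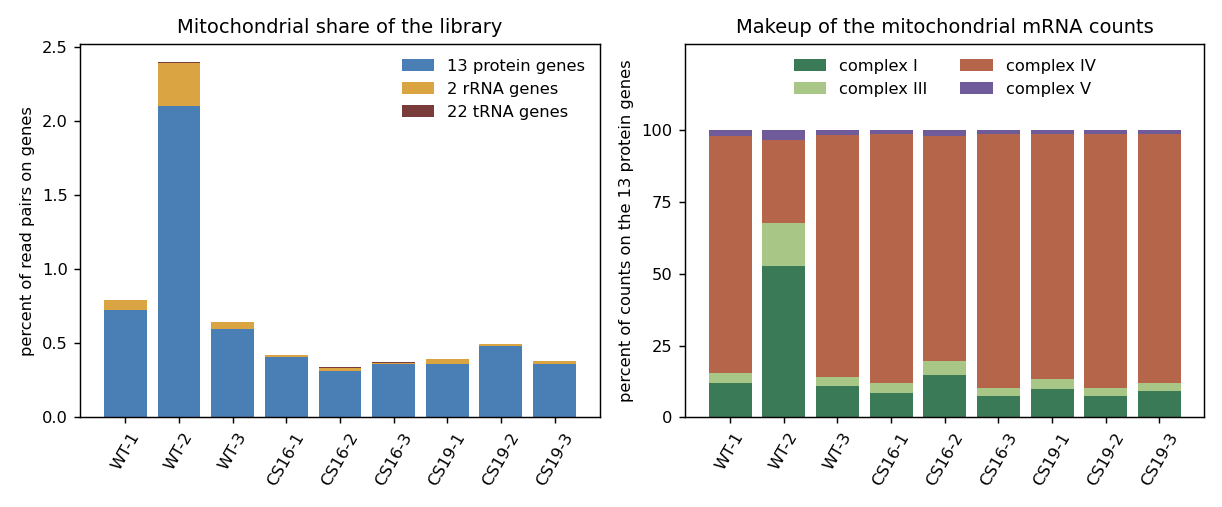
Left, counts on the 13 protein, 2 rRNA and 22 tRNA genes of the mitochondrial genome as percent of all read pairs on genes in each of the 9 libraries (stacked bars). Right, how the counts on the 13 protein genes were divided among respiratory complexes I, III, IV and V, in percent. WT-2 reached 2.40% against 0.338% to 0.795% in the other 8 libraries, and complex IV genes made up 28.9% of its mRNA counts against 78.2% to 88.6%.

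Mitochondrial mRNA made up most of this share. The 13 protein genes took 0.728%, 2.10% and 0.597% of the WT libraries and 0.311% to 0.480% of the *SNAI1*-KO libraries. Both rRNA genes together took 0.0648%, 0.286% and 0.0438% in WT and 0.00852% to 0.0301% in *SNAI1*-KO. The libraries were depleted of cytoplasmic and mitochondrial rRNA, so these are the counts left after depletion. All 22 tRNA genes together took 0.00190% to 0.00975% of any library, with the highest share in WT-2. Mature tRNAs are shorter than the sequenced read pairs, and pairs that touched a neighbouring gene as well were not counted, so tRNA counts say little about tRNA levels.

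WT-2 differed from all 8 other libraries in how its mitochondrial counts were divided among genes. The 3 genes of complex IV, cytochrome c oxidase, made up 82.4% and 84.4% of the 13 genes' counts in WT-1 and WT-3, 28.9% in WT-2 and 78.2% to 88.6% in the *SNAI1*-KO libraries. The 7 genes of complex I, NADH dehydrogenase, made up 11.9% and 10.97% in WT-1 and WT-3, 52.6% in WT-2 and 7.33% to 14.8% in *SNAI1*-KO, where CS16-2 was the highest. Against WT-1 and WT-3, these ranges overlapped through CS16-2, since the other 5 *SNAI1*-KO libraries had 85.1% to 88.6% in complex IV and 7.33% to 10.02% in complex I. *MT-CO1* alone made up 44.2% and 42.5% of the 13 genes' counts in WT-1 and WT-3, 13.4% in WT-2 and 38.5% to 40.8% in *SNAI1*-KO. Across the 13 protein and 2 rRNA genes, log2 CPM correlated at 0.975 to 0.998 (Pearson) in the 28 pairs of libraries that leave out WT-2 and at 0.554 to 0.650 in the 8 pairs that hold it. These are descriptions across genes of shared libraries, and genes are not independent replicates.

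The excess of WT-2 over WT-1 and WT-3 was uneven along the circle. CPM below are scaled by the trimmed mean of M-values (TMM). *MT-ND6*, the one protein gene encoded on the light strand, had 27.0 CPM in WT-1, 24.4 in WT-3 and 966 in WT-2, a ratio to the mean of the former of 37.6. The ratio was 28.2 for *MT-RNR1*, the small ribosomal RNA, 21.5 for *MT-ND5*, 18.6 for *MT-ND1*, 18.5 for *MT-ND4*, 17.9 for *MT-ND2*, 15.2 for *MT-CYB* and 12.6 for *MT-ND4L*. It was 6.71 for *MT-ATP8*, 6.01 for *MT-ATP6*, 3.67 for *MT-RNR2*, 3.16 for *MT-TP*, 1.97 for *MT-CO2*, 1.55 for *MT-TN* and 1.54 for *MT-ND3*. *MT-CO1*, *MT-CO3* and *MT-TC* were not raised, at ratios of 1.03, 0.990 and 0.825. Complex I genes thus lay at both ends, with *MT-ND3* far below the other 6. Of the 18 mitochondrial genes tested, 12 were at least 2-fold and 8 at least 10-fold higher in WT-2, against 19.1% and 0.417% of all 18960 genes with a ratio, and the median ratio was 6.36 against 1.00 over all genes. Over all genes, not the mitochondrial ones alone, the chi-square between replicates of 1 group, divided by its degrees of freedom, ran from 5.32 to 21.1 outside WT-2, and was 221 between WT-2 and WT-1 and 271 between WT-2 and WT-3.

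The ratio was set beside 4 properties of the genes. Across the 15 protein and rRNA genes, the log2 ratio of WT-2 correlated at -0.0124 with GC content, at 0.0785 with length and at -0.431 with the percent of bases that have a near-identical nuclear copy. It correlated at -0.893 with the log2 level per kilobase in WT-1 and WT-3, a pair of values that share the level in those libraries. CS16-2, set against CS16-1 and CS16-3, had ratios of 3.25 for *MT-ND2*, 3.09 for *MT-RNR1*, 2.87 for *MT-ND6* and 2.82 for *MT-ATP8*, but 0.809 for *MT-CO1* and 0.684 for *MT-CO3*. Over the 15 genes its log2 ratios correlated at 0.596 with those of WT-2. All these correlations are descriptions across genes, with no test.

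**Figure D2:**
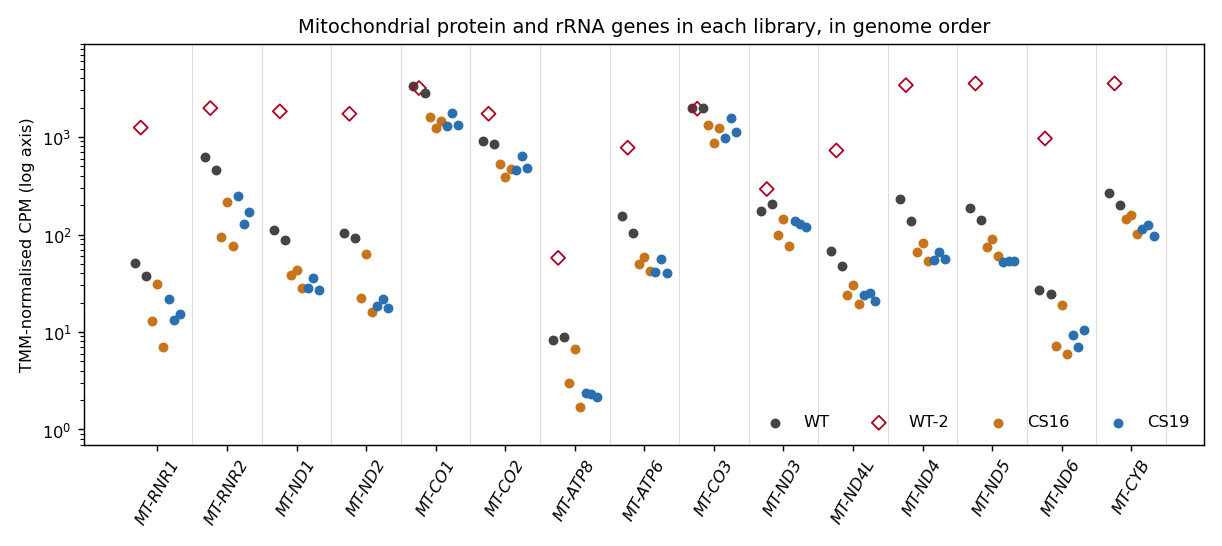
TMM-normalised CPM (log axis) of the 13 protein and 2 rRNA genes in genome order, 1 point per library, with WT-1 and WT-3 as filled grey points, WT-2 as an open red diamond, CS16 in orange and CS19 in blue. For all 15 genes every *SNAI1*-KO library lies below every WT library, and WT-2 lies far above WT-1 and WT-3 except for *MT-CO1* and *MT-CO3*, which are not raised, and *MT-CO2* and *MT-ND3*, with ratios of 1.97 and 1.54.

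Complex IV genes had the highest CPM per kilobase in all libraries but WT-2, and their differences were among the smaller ones. *MT-CO1* encodes the subunit that reduces oxygen. It had 3342, 3178 and 2858 CPM in WT, 1589, 1229 and 1452 in CS16 and 1296, 1764 and 1332 in CS19, so that both clones lay below WT with no overlap. The log2 fold change of *SNAI1*-KO against WT was -1.11 (SE 0.15, adjusted p = 6.3e-05 by the quasi-likelihood test of edgeR, Benjamini-Hochberg method) and was the same, -1.11, without WT-2. *MT-CO3* encodes a core subunit without a metal centre and had 1972, 1951 and 1970.3 CPM in WT, 1336, 877 and 1229.7 in CS16 and 977, 1555 and 1123 in CS19. Its WT libraries were nearly equal, and its log2 fold change was -0.73 (SE 0.18, adjusted p = 0.00418), or -0.74 without WT-2. *MT-CO2*, which encodes the subunit that takes electrons from cytochrome c, had 912, 1733 and 845 CPM in WT, 525, 389 and 467 in CS16 and 461, 635 and 477 in CS19. Here WT-2 was the highest library, and the log2 fold change of -1.24 (SE 0.23) became -0.84 (SE 0.15) without it, past the threshold both ways (adjusted p = 0.000566 and 0.000435).

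Complex I genes showed the widest range of differences. *MT-ND4*, a membrane subunit of the proton pump, had 229, 3404 and 139 CPM in WT, 66.3, 82.7 and 53.6 in CS16 and 54.1, 66.2 and 56.7 in CS19. *MT-ND5*, another pump subunit, had 187, 3541 and 143 CPM in WT, 74.3, 88.9 and 60.2 in CS16 and 51.7, 53.9 and 53.5 in CS19. For both genes the *SNAI1*-KO libraries lay below all WT libraries, but the distance to the WT mean was set by WT-2. The log2 fold change of *MT-ND4* was -4.31 (SE 0.75, adjusted p = 0.000365) with WT-2 and -1.55 (SE 0.19, adjusted p = 2.08e-05) without it. For *MT-ND5* it was -4.34 (SE 0.78, adjusted p = 0.00048) with WT-2 and -1.37 (SE 0.19, adjusted p = 7.22e-05) without it. *MT-ND6* had 27.0, 966 and 24.4 CPM in WT, 7.17, 18.8 and 5.94 in CS16 and 9.43, 6.95 and 10.5 in CS19. CS16-2 came closest to WT there, and the log2 fold change was -5.11 (SE 0.95, adjusted p = 0.000601) with WT-2 and -1.40 (SE 0.34, adjusted p = 0.00346) without it. Strand was not used in the counting, so pairs from RNA of the heavy strand across *MT-ND6* cannot be told apart from its own.

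The remaining complex I genes moved likewise. *MT-ND2* had 103, 1731 and 91.1 CPM in WT, 22.3, 62.8 and 16.2 in CS16 and 18.4, 21.8 and 17.8 in CS19, where CS16-2 stood apart from the other 5 *SNAI1*-KO libraries. Its log2 fold change was -4.60 (SE 0.83) with WT-2 and -1.87 (SE 0.41) without it. *MT-ND1* and *MT-ND4L* had log2 fold changes of -4.33 and -3.55 with WT-2, and of -1.56 and -1.27 without it. *MT-ND3* was the exception among complex I genes, at 175, 293 and 206 CPM in WT, 99.3, 145 and 77.0 in CS16 and 136, 127 and 119 in CS19. Its groups lay closer together than those of the other 6, with a log2 fold change of -0.94 (SE 0.21) with WT-2 and -0.71 (SE 0.19) without it. All 7 genes passed the threshold with and without WT-2.

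*MT-CYB* encodes cytochrome b, the only subunit of complex III from this genome. It had 266, 3546 and 200.2 CPM in WT, 145, 158 and 101 in CS16 and 112.8, 125 and 97.5 in CS19. WT-1 and WT-3 lay near the clones but above all 6 of their libraries, and WT-2 far above both. The log2 fold change of -3.44 (SE 0.69, adjusted p = 0.00102) became -0.92 (SE 0.18, adjusted p = 0.000783) without WT-2.

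The genes of ATP synthase, *MT-ATP8* and *MT-ATP6*, share a stretch of coding sequence. *MT-ATP8* encodes a small subunit of the membrane part, and *MT-ATP6* encodes the subunit next to the turning ring. The stretch they share is shown because a read pair that touched it could not be given to either gene in the counting. It is written for the plus strand at chrM:8527-8572 on GRCh38, with the start codon of *MT-ATP6* and the last codon of *MT-ATP8* in capitals.
overlap of *MT-ATP8* and *MT-ATP6*: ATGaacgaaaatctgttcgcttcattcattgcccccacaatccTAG

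The overlap takes 46 of the 207 bases of *MT-ATP8* and of the 681 bases of *MT-ATP6*. *MT-ATP8* had 8.30, 57.5 and 8.84 CPM in WT, 3.00, 6.64 and 1.71 in CS16 and 2.37, 2.30 and 2.16 in CS19. CS16-2 was the highest *SNAI1*-KO library and still lay below WT, and the log2 fold change was -3.04 (SE 0.60, adjusted p = 0.000871) with WT-2 and -1.51 (SE 0.40, adjusted p = 0.00616) without it. *MT-ATP6* had 155, 778 and 104 CPM in WT and 40.8 to 58.5 CPM in *SNAI1*-KO. Its log2 fold change was -2.85 (SE 0.48, adjusted p = 0.000274) with WT-2 and -1.44 (SE 0.17, adjusted p = 1.52e-05) without it.

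The rRNA genes encode the RNA of both subunits of the mitochondrial ribosome. *MT-RNR2*, for the large subunit, had 621, 1979.6 and 456 CPM in WT, 94.7, 215 and 77.0 in CS16 and 246, 128 and 169 in CS19. *MT-RNR1*, for the small subunit, had 51.4, 1249.6 and 37.3 CPM in WT, 13.1, 31.1 and 7.05 in CS16 and 21.7, 13.3 and 15.4 in CS19. Both genes were lower in every *SNAI1*-KO library than in every WT library. For *MT-RNR2* the log2 fold change was -2.72 (SE 0.46, adjusted p = 0.000272) with WT-2 and -1.80 (SE 0.35, adjusted p = 0.000749) without it, and for *MT-RNR1* -4.72 (SE 0.90, adjusted p = 0.000716) with WT-2 and -1.40 (SE 0.38, adjusted p = 0.0074) without it. The ratio of *MT-RNR1* to *MT-RNR2* counts was 0.0827 and 0.0818 in WT-1 and WT-3, 0.631 in WT-2 and 0.0882 to 0.145 in *SNAI1*-KO. How completely each library was depleted of these rRNAs was not tested, and any difference in depletion cannot be told apart from a difference in level.

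Among the tRNA genes, 3 of 22 had enough counts to be tested: *MT-TP*, *MT-TC* and *MT-TN*, for proline, cysteine and asparagine. Their sequences are shown because all 3 lie on the light strand beside gene-free bases. *MT-TP* lies next to the 1122 bases of the control region, from which transcription starts. *MT-TC* and *MT-TN* lie on either side of a gap of 31 bases. The sequences are written 5′ to 3′ as encoded on the minus strand of GRCh38, without capitals, at chrM:15956-16023, chrM:5761-5826 and chrM:5657-5729.
*MT-TP*: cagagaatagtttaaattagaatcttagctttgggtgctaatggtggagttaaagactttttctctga
*MT-TC*: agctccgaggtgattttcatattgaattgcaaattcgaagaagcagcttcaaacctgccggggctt
*MT-TN*: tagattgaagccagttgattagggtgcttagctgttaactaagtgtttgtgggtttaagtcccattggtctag

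*MT-TP* had 21.6, 98.3 and 40.6 CPM in WT, 16.7, 24.5 and 20.5 in CS16 and 19.1, 26.7 and 22.6 in CS19. WT-1 overlapped the clones, and the log2 fold change of -1.30 (SE 0.35, adjusted p = 0.00704) no longer passed the threshold without WT-2, at -0.52 (SE 0.22, adjusted p = 0.0571). *MT-TC* had 2.67, 3.60 and 6.07 CPM in WT, from 54 counts upwards, and 0.820 to 2.73 CPM in *SNAI1*-KO, with CS19-1 above WT-1, and a log2 fold change of -1.64 (SE 0.40, adjusted p = 0.00345) with WT-2 and -1.74 (SE 0.43, adjusted p = 0.00416) without it. *MT-TN* had 28, 34 and 22 counts in WT and 5 to 19 in *SNAI1*-KO, with a log2 fold change of -1.48 (SE 0.35, adjusted p = 0.00288) with WT-2 and -1.25 (SE 0.38, adjusted p = 0.012) without it. The other 19 tRNA genes had 2 to 42 counts each over all 9 libraries and were not tested. WT-2 had the highest count of 14 of these 19 and 109 of their counts in all, against 4 to 24 in each other library. For most of them the neighbouring genes begin within a few bases, so nearly any pair longer than the tRNA touched a second gene and was left out.

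Taking both clones together, 18 of the 18 mitochondrial genes tested were lower in *SNAI1*-KO than in WT at an adjusted p below 0.05, against 32.6% of all 19631 genes tested. Of these, 11 also reached a log2 fold change of -2 or less, the cut-off of the study's methods, against 14.3% of all genes. The study used this cut-off with DESeq2. As run here, DESeq2 gave 9 of the 18 as lower and 2 at -2, and no adjusted p for the other 9. In edgeR without WT-2, 17 of 18 were lower, against 33.2% of all genes, but 0 of 18 reached a log2 fold change of -2, against 12.9%. The 11 calls at this cut-off thus rested on WT-2, while the lower level itself did not, apart from *MT-TP*. The median log2 fold change of the 18 genes was -2.94 with WT-2 and -1.38 without it, and over all genes tested -0.0040 and 0.036. In 16 of the 18 genes, among them all 13 protein and both rRNA genes, every *SNAI1*-KO library was below every WT library, against 28.7% of all genes. Directions refer to TMM scaling. When libraries were scaled instead to the sum of the 13 protein genes, which moved the median of all genes by 1.39 on the log2 scale, *MT-CO1*, *MT-CO2*, *MT-CO3* and *MT-ND3* had positive log2 fold changes of 0.25, 0.35, 0.61 and 0.58 with all 3 WT libraries. This scaling sets the 13 genes against their own sum, so some come out above 0 whenever they do not all differ alike. In CS16 and CS19, 0 of the 13 were higher past the threshold with it. The same scaling without WT-2, an alternative chosen after seeing the data, moved the median of all genes by 1.03 and gave *MT-CO1* a log2 fold change of -0.13 (adjusted p = 0.564), *MT-CO2* 0.14, *MT-CO3* 0.22 and *MT-ND3* 0.29, none of them past the threshold. Of the 18 genes, 2 passed it there, *MT-ND1* at -0.56 and *MT-ND4* at -0.53.

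Each clone alone gave a similar picture against the same 3 WT libraries, which the comparisons share. In CS16, 17 of 18 genes were lower, against 28.6% of all genes, and 12 reached a log2 fold change of -2, against 15.3%. *MT-TP* missed the threshold there with a log2 fold change of -1.35 (adjusted p = 0.0584). Without WT-2, 18 of 18 were lower in CS16, against 36.3%, and 2, *MT-RNR2* at -2.07 and *MT-TC* at -2.15, reached -2, against 14.1%. In CS19, 16 of 18 genes were lower, against 26.6%, and 11 reached -2, against 14.4%, and the exceptions were *MT-TC* (-1.28, adjusted p = 0.0616) and *MT-TP* (-1.19, adjusted p = 0.0846). Without WT-2, 18 of 18 were lower in CS19, against 34.8%, and 1, *MT-ND2* at -2.31, reached -2, against 13.1%. *MT-TP* was among the 18 in both clones, although its WT-1 level of 21.6 CPM lay within the range of either clone. With WT-2 kept, the counts of genes lower and of genes at -2 also fell when any one library of the clone was left out. Leaving out replicate 1, 2 or 3 of CS16 left 7, 7 and 5 genes lower and 3, 3 and 2 at -2, and leaving out replicate 1, 2 or 3 of CS19 left 5, 7 and 5 genes lower and 3, 4 and 4 at -2. *MT-CO3*, which was not at -2, also no longer passed the adjusted p threshold in both clones without WT-1, and in CS19 without WT-3.

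**Figure D3:**
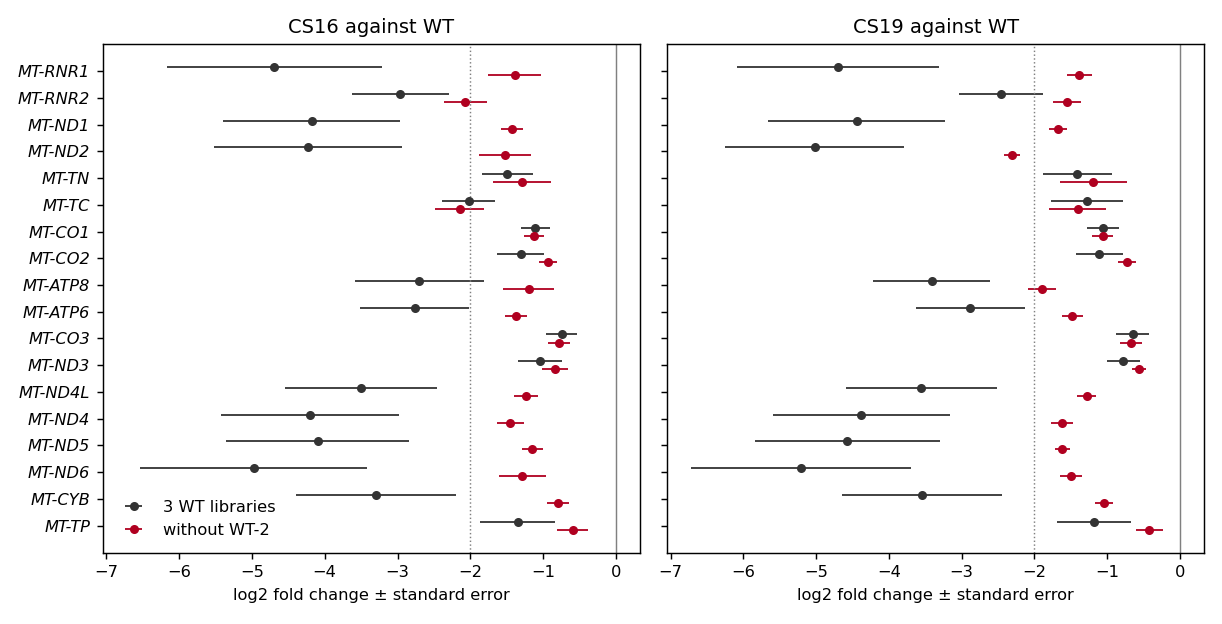
Log2 fold change ± standard error (edgeR, TMM scaling) of the 18 mitochondrial genes tested, in genome order, for CS16 against WT (left) and CS19 against WT (right), with all 3 WT libraries (grey) and without WT-2 (red). The dotted line marks -2. Every point lies below 0, but leaving out WT-2 moves *MT-ND6* from -4.98 to -1.28 in CS16 and from -5.21 to -1.49 in CS19, while *MT-CO1* and *MT-CO3* hardly move. Scaled to the 13 protein genes, which is not drawn, *MT-CO1*, *MT-CO2*, *MT-CO3* and *MT-ND3* have values above 0 in both clones with all 3 WT libraries, while without WT-2 *MT-CO1* is at -0.13 in both. That scaling sets the 13 genes against their own sum.

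Between the clones, 1 of 18 mitochondrial genes passed the threshold, against 27.4% of all genes in either direction, and 0 of 18 reached a log2 fold change of 2 in either direction, against 1.13%. The gene was *MT-ND5*, with a mean level in CS16 of 74.5 CPM ± 14.4 and in CS19 of 53.0 CPM ± 1.19 (SD, n = 3), with a log2 fold change of 0.48 (SE 0.11, adjusted p = 0.00495). The CS16 and CS19 values of *MT-ND5* did not overlap. The count of 1 was 5 without CS16-2, 6 without CS16-3, and 2 without CS19-2 or CS19-3. In a fit that shared 1 estimate of the spread over WT, CS16 and CS19, the count was 0. *MT-ND5* there had a log2 fold change of 0.49 with an adjusted p of 0.938. Without such sharing, 2 genes were at an unadjusted p below 0.05, in edgeR as in DESeq2. The highest log2 fold change was that of *MT-ND2*, 0.79 (SE 0.35, adjusted p = 0.118), which was -0.0058 without CS16-2. For *MT-CO1* the 95% interval of the log2 fold change ran from -0.28 to 0.19, and for *MT-RNR1* from -0.72 to 0.73. Differences within these bounds were compatible with the values. The intervals use a normal approximation, which makes them too narrow for 3 libraries per group.

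Levels per kilobase put the 13 protein genes in 1 order in WT-1, WT-3 and the clones, with small exchanges. *MT-CO3* was the highest gene in 8 of 9 libraries, at 1509 CPM per kilobase ± 314 over the 6 *SNAI1*-KO libraries and 2514 in the mean of WT-1 and WT-3. *MT-CO1* followed at 936 ± 131 and 2010.5, *MT-CO2* at 720.1 ± 121 and 1284, and *MT-ND3* at 339 ± 72.5 and 551. After a gap, *MT-CYB*, *MT-ND4L* and *MT-ATP6* stood at 108 ± 21.2, 80.6 ± 12.8 and 70.5 ± 11.4 in *SNAI1*-KO. *MT-ND4* at 45.9 ± 8.05, *MT-ND5* at 35.2 ± 8.20, *MT-ND1* at 35.2 ± 7.01 and *MT-ND2* at 25.5 ± 17.2 came next. *MT-ND6* at 18.7 ± 8.99 and *MT-ATP8* at 14.6 ± 8.78 were the lowest. These levels divide counts by the full gene length, although pairs that touched a second gene were not counted. This weighs most on short or overlapping genes such as *MT-ATP8*. How far such pairs, or pairs lost to nuclear copies, set the order was not tested, so it is an order of counts and not of mRNA amounts. In *SNAI1*-KO the mean ± SD of neighbours in this order overlapped, except between *MT-CO3* and *MT-CO1*, *MT-CO2* and *MT-ND3*, *MT-ND3* and *MT-CYB*, and *MT-ATP6* and *MT-ND4*. The highest gene stood above the lowest by 34.9 to 189 times in the 8 libraries and by 11.2 times in WT-2, where *MT-CYB* was the highest at 3108 CPM per kilobase and *MT-ND6* reached 1840 (*MT-CO3* had 2489).

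Near-identical copies of mitochondrial DNA in the nuclear genome can take or lose read pairs of the genes above. The bases chrM:3911-9755, from within *MT-ND1* to within *MT-CO3*, match chr1:629081-634924 at 98.5% identity. Pairs were counted only at a mapping quality of at least 30, so a pair that holds no differing base was lost from both places. This bears on *MT-ND2*, *MT-CO1*, *MT-CO2*, *MT-ATP8* and *MT-ATP6*, whose bases all have a copy there, on 70.0% of the bases of *MT-CO3* and on 36.8% of those of *MT-ND1*. A copy of 256 bases on chromosome 13, at 99.2% identity, covers 26.8% of *MT-RNR1*. *MT-ND3* to *MT-CYB* have no copy of at least 150 bases at 98% identity. How many pairs were lost was not tested. Of 404 nuclear copies in the annotation, 130 had a count and 2 had a mean of at least 100 counts, *MTCO1P12* at chr1:631074-632616 and *MTATP6P1* at chr1:633696-634376. Over their whole length they match *MT-CO1* at 98.6%, with 20 substitutions, and *MT-ATP6* at 98.5%, with 10 substitutions. The 80-base windows with the most substitutions are shown because pairs can be told apart only by such bases. They are written for the plus strand of GRCh38, and capitals mark the 4 bases that differ within each pair. The windows are chrM:6220-6299 of *MT-CO1* and chr1:631390-631469 of *MTCO1P12*, and chrM:8639-8718 of *MT-ATP6* and chr1:633808-633887 of *MTATP6P1*.
*MT-CO1*: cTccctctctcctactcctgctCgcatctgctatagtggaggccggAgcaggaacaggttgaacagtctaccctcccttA
*MTCO1P12*: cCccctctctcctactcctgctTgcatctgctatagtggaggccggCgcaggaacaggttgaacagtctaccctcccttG
*MT-ATP6*: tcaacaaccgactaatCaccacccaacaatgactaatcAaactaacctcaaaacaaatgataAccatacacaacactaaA
*MTATP6P1*: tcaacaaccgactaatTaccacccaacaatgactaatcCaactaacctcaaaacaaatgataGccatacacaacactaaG

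Both copies were lower in *SNAI1*-KO. They were named for their mean count, to which the WT libraries add. *MTCO1P12* reached that mean only through its WT counts, so its direction was in part set by this choice. Of the 7 nuclear copies tested, 3 were lower in *SNAI1*-KO past the threshold, 0 were higher and 4 did not pass it. *MTCO1P12* had 674, 363 and 627 counts in WT, 43, 54 and 53 in CS16 and 64, 71 and 73 in CS19. This was 0.997%, 0.653% and 1.13% of the *MT-CO1* counts in WT and 0.133% to 0.225% in *SNAI1*-KO, with no overlap, and unlike most mitochondrial genes it was lowest among the WT libraries in WT-2. Its log2 fold change was -3.50 (SE 0.20, adjusted p = 4.12e-08), or -3.70 without WT-2, beside -1.11 for *MT-CO1*, and the difference of both values was not tested. *MTATP6P1* had 304, 5052 and 181 counts in WT, 127 to 138 in CS16 and 85 to 135 in CS19. Its counts went with those of *MT-ATP6*, at 9.72% and 8.93% of them in WT-1 and WT-3 and 9.17% to 12.6% in *SNAI1*-KO, but at 37.2% in WT-2. The log2 fold change of *MTATP6P1* was -4.32 (SE 0.82, adjusted p = 0.000666) with WT-2 and -1.22 (SE 0.25, adjusted p = 0.00107) without it.

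The nuclear genes that maintain, transcribe and process this genome went mostly the other way. Of 48 genes listed, all tested, 26 were higher in *SNAI1*-KO at an adjusted p below 0.05, against 31.1% of all genes, and 3 were lower, against 32.6%, namely *ESRRA*, *REXO2* and *PDE12*. The median log2 fold change of the list was 0.71, against -0.0040 over all genes, and 0.52 without WT-2, where 31 were higher, against 34.0% of all genes, and 3 lower, against 33.2%. Scaled to the 13 mitochondrial protein genes, by which all genes shifted as given above, *ESRRA*, *REXO2* and *PDE12* had positive values of 0.55, 0.40 and 0.74, none past the threshold.

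*PPARGC1B*, a coactivator of genes for mitochondrial biogenesis, differed most within the list, at 3.71, 7.61 and 4.27 CPM in WT, 47.7, 49.4 and 52.4 in CS16 and 27.2, 27.8 and 24.8 in CS19. The log2 fold change was 2.88 (SE 0.36, adjusted p = 3e-05), or 3.25 without WT-2, and CS16 lay above CS19 without overlap. *FASTKD1*, of a family of proteins that act on mitochondrial RNA, had 20.9, 8.01 and 19.95 CPM in WT and 66.4 to 91.3 in *SNAI1*-KO, at 2.24 (SE 0.28), or 1.92 without WT-2. *TFB1M*, which methylates the small rRNA, stood at 1.32 (SE 0.21), *MTERF4*, a factor of ribosome assembly, at 1.30 (SE 0.20), and *HSD17B10*, a subunit of the enzyme that cuts tRNA 5′ ends, at 1.29 (SE 0.15). Without WT-2 these log2 fold changes were 1.26, 1.08 and 1.30.

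The values of *POLRMT*, *TFAM* and *LRPPRC* moved with WT-2. *POLRMT*, the polymerase, had 29.7, 96.6 and 33.9 CPM in WT, 102 to 112.2 in CS16 and 89.6 to 104 in CS19. WT-2 lay within the clones' range, and the log2 fold change of 0.94 (SE 0.32, adjusted p = 0.0245) became 1.68 (SE 0.12, adjusted p = 2.48e-07) without it, while leaving out WT-1 or WT-3 gave 0.65 and 0.72 (adjusted p = 0.0973 and 0.0852). *TFAM*, which packs mitochondrial DNA and starts its transcription, had 181, 55.5 and 207 CPM in WT and 216 to 276 in *SNAI1*-KO. It did not pass the threshold, at 0.71 (SE 0.32, adjusted p = 0.0723), but did without WT-2, at 0.31 (SE 0.11, adjusted p = 0.0292). *LRPPRC*, which keeps mitochondrial mRNAs stable, had 407, 292 and 413 CPM in WT and 461 to 567 in *SNAI1*-KO, at 0.44 (SE 0.15, adjusted p = 0.0235) with WT-2 and 0.29 (adjusted p = 0.0276) without it. Leaving out CS19-3 brought *LRPPRC* to an adjusted p of 0.0503. WT-2 was thus the lowest library of all 9 for *TFAM* and *LRPPRC* and the highest WT library for *POLRMT*, beside its high mitochondrial share.

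**Figure D4:**
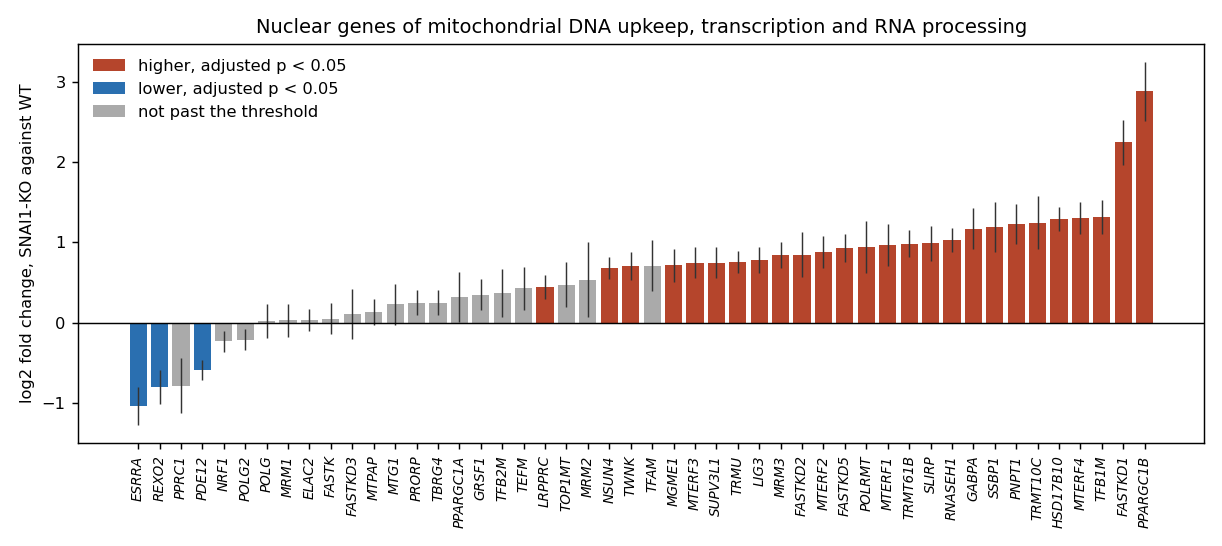
Log2 fold change of *SNAI1*-KO against WT (edgeR, TMM scaling, all 3 WT libraries) for the 48 nuclear genes of mitochondrial DNA upkeep, transcription and RNA processing, ordered by value. Bars are coloured by adjusted p below 0.05 (red higher, blue lower, grey not past it), and lines show ± 1 standard error. The 26 red bars reach 2.88 for *PPARGC1B*, and the 3 blue bars end at -1.04 for *ESRRA*.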

How the data were processed

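Total RNA was depleted of cytoplasmic and mitochondrial rRNA and sequenced as stranded 150-base pairs. The authors used Trimmomatic 0.36 for trimming and STAR 2.7.2b for alignment to GRCh38, and counted pairs per gene of gencode 38 with featureCounts (Subread 2.0.0) at a mapping quality of at least 30, without strand and without pairs that overlapped 2 genes. The authors deposited these raw counts per gene and library. Libraries held 19527195 to 28627777 counts, and 3 counts correspond to 0.0984 to 0.172 CPM. Precision of shares covers counting error only.

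From the counts, genes passing filterByExpr were tested with edgeR 4.0.16 (TMM, glmQLFit and glmQLFTest) in R 4.3.3, with Benjamini-Hochberg adjustment over all genes tested, at an adjusted p of 0.05 and, for calls, a log2 fold change of 2. Comparisons were *SNAI1*-KO, CS16 and CS19 against WT, which share the WT libraries, and CS16 against CS19. Alternatives were DESeq2 1.42.0, RLE and upper-quartile scaling, scaling on nuclear genes, without the 100 highest genes or to the 13 mitochondrial protein genes, no filter, at least 10 counts in 3 libraries, a log2 cut-off of 1, a shared fit, the replicate number as a block, each library left out, other denominators of the share, and, chosen after seeing the data, scaling to the 13 genes without WT-2. Genes named are all 13 protein and 2 rRNA genes, tRNA genes passing the filter, *TFAM*, *POLRMT*, *LRPPRC*, the 5 nuclear genes with the largest fold changes past the threshold, and nuclear copies with a mean of at least 100 counts. *ESRRA*, *REXO2* and *PDE12* were named after their values were seen. The members and lists were chosen with earlier results of these data known. Coordinates of the 37 genes were equal in gencode 44, sequences were read from GRCh38, and copies were found with blastn 2.17.0. Markers were VIM, CD44, EGFR, AXL, CAV1, S100A4, S100A6, ANXA1, PLAU, LAMB3 and MSN (basal-B), ESR1, PGR, GATA3, FOXA1, KRT8, KRT18, EPCAM, CDH1 and TFF1 (luminal), and PTPRC, CD3E and ITGAM (haematopoietic). Other marker genes chosen at the outset are not reported here. The steps were tested on simulated data. Protein sequences and reads were not analysed here.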

Additional observations from a re-analysis of the deposited data

Results flagged for a closer look

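In CS16-2, 3 mitochondrial genes lay far above the other 5 *SNAI1*-KO libraries: *MT-ND2* with 62.8 CPM, *MT-ND6* with 18.8 CPM and *MT-ATP8* with 6.64 CPM, against highest values of 22.3, 10.5 and 3.00 CPM in the others. *MT-TC* did so in CS19-1, with 2.73 CPM against at most 1.43. These came from 22 values checked for a gap wider than Dixon's 95% limit among 6 libraries, which chance passes in about 1 of 20 groups. *MT-ND5* differed between the clones, with a log2 fold change of 0.48 for CS16 against CS19 from edgeR's quasi-likelihood test.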

How the results depend on the processing

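Normalization by RLE or upper quartile, scaling on nuclear genes or without the 100 highest genes, and a filter of 10 counts kept the counts of genes lower in *SNAI1*-KO at 18 and of those at a log2 fold change of -2 at 11. DESeq2 gave 9 and 2, with no adjusted p for the other 9 genes; for CS16 it gave 10 and 4 and for CS19 10 and 3, with none for 8. No filter gave 18 genes at -2, since all 37 genes were then tested. Scaled to the 13 protein genes, 8 were past the threshold and 3 at -2 in *SNAI1*-KO, 0 and 0 in CS16, and 7 and 6 in CS19. The log2 fold changes of *MT-CO1*, *MT-CO2*, *MT-CO3* and *MT-ND3* then turned to 0.25, 0.35, 0.61 and 0.58 in *SNAI1*-KO, 0.25, 0.27, 0.59 and 0.48 in CS16, and 0.25, 0.42, 0.63 and 0.68 in CS19. The 13 genes were set against their own sum there, so such turns follow in part from the scaling. With this scaling and without WT replicate 2, an alternative chosen after seeing the data, 0 genes were at -2 in *SNAI1*-KO, CS16 and CS19, and 2, 3 and 7 were past the threshold; *MT-CO2*, *MT-CO3*, *MT-ND3* and *MT-CYB* turned to 0.14, 0.22, 0.29 and 0.081 in *SNAI1*-KO and to 0.060, 0.20, 0.19 and 0.23 in CS16, and *MT-CO2*, *MT-CO3* and *MT-ND3* to 0.21, 0.24 and 0.39 in CS19. Leaving out 1 library gave 0 to 11 genes at -2 in *SNAI1*-KO, 2 to 12 at -2 and 5 to 18 past the threshold in CS16, and 1 to 11 and 5 to 18 in CS19. For CS16 against CS19, no filter gave 7 genes past the threshold, the shared fit 0, and leaving out 1 library 1 to 6. The small log2 fold changes between the clones turned: *MT-CO1* to 0.0014 when scaled to the 13 genes, *MT-RNR1* to -0.028 with upper-quartile scaling, and with 1 library left out *MT-ND2* ranged from -0.0058 to 1.14, *MT-CO1* from -0.13 to 0.12, *MT-CO3* from -0.22 to 0.13, *MT-ND4L* from -0.11 to 0.21, *MT-ND6* from -0.46 to 0.52 and *MT-RNR1* from -0.75 to 0.39. Replicate numbers did not pair the libraries, since the correlations of same-numbered deviations ran from -0.386 to 0.331 and 1 of 9 libraries correlated best with its own number. With the replicate block, 18 genes were past the threshold and 11 at -2 in *SNAI1*-KO, 13 and 7 in CS16, and 11 and 8 in CS19, and *MT-RNR1* between the clones was -0.20. Without the 100 highest nuclear genes in the total, the mitochondrial share was 1.5% in WT, 0.452% in CS16 and 0.505% in CS19. The cause of these changes was not tested, apart from the number of genes or libraries used. The 19 tRNA genes with 2 to 42 counts were not tested.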
